A study of Homo sapiens with 39 samples.

Results

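The genes described here are 40 genes of the acute-phase and NF-kB inflammatory programme, out of 60671 distinct genes in the deposited gene table. They were followed through 39 RNA-seq libraries, 18 of the melanoma line A375 and 21 of the melanoma line WM115, both established from human tumours. The 40 names were selected on measured values in part, because SAA1, SAA2 and LCN2 had fallen furthest in the R1 clones of WM115, and the other 37 are names that belong to the same programme. In the gene table SAA1 is ENSG00000173432 (chromosome 11, 18266174 to 18269977, plus strand), SAA2 is ENSG00000134339 (chromosome 11, 18239223 to 18248643, minus strand) and LCN2 is ENSG00000148346 (chromosome 9, 128149071 to 128153455, plus strand), with positions of GENCODE 29 on GRCh38. The differences of WM115 clones 1.1 and 1.2 from WT therefore chose the members. They are given as a description with no test. For each line the libraries come from wild-type cells (WT) and from clones whose genotype label is R1_del or R4_del, each a deletion of a stretch of DNA that the series describes as a SOX10 enhancer. In A375 there were 4 WT libraries, 3 and 4 libraries of R1_del clones 1.1 and 1.2, and 4 and 3 libraries of R4_del clones 4.1 and 4.2. In WM115 there were 4 WT libraries, 5 and 3 of R1_del clones 1.1 and 1.2, and 3 each of R4_del clones 4.1 and 4.2. Another WM115 clone, 1.3, is numbered with the R1 clones but carries the genotype label R4_del, and its 3 libraries were kept as a group of their own. Each clone is 1 edited line, its libraries repeat that clone, and a difference from WT holds for that clone and not for the deletion as such. The labels do not say whether libraries of a group came from separate cultures, so p-values measure the spread between these libraries, which may be technical. The labels used here name no cytokine or drug treatment, so WT and clones alike were unstimulated as far as the labels go.

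Levels are in TPM, a share of the library corrected for transcript length, so that levels of different genes can be set side by side. A difference is on the scale of log2(TPM + 1), which understates changes of genes near 0. A gene was tested in a line when at least 3 of its libraries had a TPM of at least 1, which held for 31 members in A375 and 37 in WM115. A member is called higher or lower when limma gave a Benjamini-Hochberg adjusted p under 0.05 over all genes tested and the log2 difference was at least 1 in size. CXCL5, CXCL6 and VCAM1 did not reach the level needed for testing in either line. SAA1, SAA2, LCN2, CCL5, IL6 and TNFAIP6 did not reach it in A375. Depth is unknown because the tables hold TPM without counts, and a gene at 0 is called listed at 0.

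NF-kB factors are dimers of Rel proteins, among them the products of NFKB1, NFKB2 and RELB, which inhibitors of the IkB family such as the product of NFKBIA hold in the cytoplasm. Signals from receptors for IL1 family cytokines, TNF and bacterial products remove the inhibitor, and the released dimers switch on chemokines, cytokines, survival factors and the inhibitors themselves. The acute-phase genes are the part of this response best known from liver, where IL6 and IL1 raise serum amyloid A (SAA1 and SAA2), lipocalin 2 (LCN2) and complement proteins, often together with C/EBP factors. Melanoma cells are known to make several of these chemokines and cytokines themselves, CXCL8 and IL1B among them.

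Some features of the libraries bear on all results. The number of genes at or above 1 TPM was 14128 to 16140 in A375 and 14084 to 15528 in WM115. The share of mitochondrially encoded genes was 0.968% to 4.92% in A375 and 4.71% to 19.4% in WM115, where the WT libraries (13.7% to 15.6%) lay above those of clone 4.1 (5.24% to 10.8%). Ribosomal protein genes took 12.0% to 13.6% in WM115 WT and 18.1% to 18.4% in clone 4.1. Library 3 of WM115 clone 1.2 stood apart, with SOX10 at 9.56 TPM against 272 and 279 TPM in the other libraries of that clone and a summed level of 9 melanocytic markers of 42.8 TPM. The lymphocyte markers CD3D and MS4A1 were listed at 0 in every WM115 library. The 9 leukocyte and macrophage markers summed to 337 to 449 TPM in WM115 WT and 383 to 471 TPM in clone 4.1, nearly all of it CD68 (336 to 445 and 381 to 469 TPM). PTPRC, the pan-leukocyte marker, was at most 0.483 TPM in any WM115 library. The 6 fibroblast markers summed to 459.6 to 672 TPM in WT and 585 to 671 TPM in clone 4.1, most of it COL1A2. The 4 hepatocyte markers summed to at most 2.06 TPM in any library. The melanocytic markers DCT, TYR, TYRP1 and MLANA were below 1 TPM in every A375 library, while SOX10 was at 381 to 876 TPM there. All 9 melanocytic markers reached 1 TPM in WM115.

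Promoter sequences of RefSeq (GRCh38.p14) were found for 30 of the 40 members, and the 250 bases before the listed start were searched. The stretch printed for PTGS2 holds 246 of them. The letters GGG, then 4 bases of any kind, then TCC, the core of the sites that NF-kB binds, occurred on either strand in the windows of 19 of the 30 members (63.3%) and in 5308 of 27305 windows in all (19.4%). TTGCNNAA, a C/EBP-type sequence, occurred on either strand in 7 of 30 (23.3%) and in 9.1% of all windows, and TATAAA on the sense strand in 8 of 30 (26.7%) and in 7.2%. A match is a description of the letters and not evidence of a bound site. The windows below were chosen to set members with the match beside one without it. The windows of PTGS2 and NFKBIA hold a match and both genes were called higher in WM115 clone 4.1, those of CXCL1 and NFKBIZ hold it and neither gene was called there, and that of IL11 holds none although IL11 was called. Capitals mark the letters of the match, on whichever strand it lies.
PTGS2 chr1:186680428-186680673 (minus strand): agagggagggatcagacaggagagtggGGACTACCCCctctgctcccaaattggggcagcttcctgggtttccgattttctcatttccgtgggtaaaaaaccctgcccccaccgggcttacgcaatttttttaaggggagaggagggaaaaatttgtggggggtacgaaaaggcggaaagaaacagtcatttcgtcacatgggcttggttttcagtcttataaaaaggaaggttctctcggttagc
NFKBIA chr14:35404750-35404999 (minus strand): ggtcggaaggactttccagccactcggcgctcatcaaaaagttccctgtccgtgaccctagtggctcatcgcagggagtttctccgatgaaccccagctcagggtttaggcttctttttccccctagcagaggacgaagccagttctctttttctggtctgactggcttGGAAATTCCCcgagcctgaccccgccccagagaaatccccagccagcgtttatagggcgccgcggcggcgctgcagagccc
CXCL1 chr4:73869143-73869392 (plus strand): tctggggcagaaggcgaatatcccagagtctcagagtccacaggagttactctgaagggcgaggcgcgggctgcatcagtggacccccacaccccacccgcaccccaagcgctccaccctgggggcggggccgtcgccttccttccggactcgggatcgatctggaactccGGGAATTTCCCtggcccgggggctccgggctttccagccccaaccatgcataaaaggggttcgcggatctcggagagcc
NFKBIZ chr3:101827740-101827989 (plus strand): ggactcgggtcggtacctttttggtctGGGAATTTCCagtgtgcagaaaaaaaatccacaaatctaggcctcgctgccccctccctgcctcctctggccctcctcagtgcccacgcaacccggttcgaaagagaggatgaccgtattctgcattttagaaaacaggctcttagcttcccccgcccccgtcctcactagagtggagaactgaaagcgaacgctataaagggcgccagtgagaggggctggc
IL11 chr19:55370464-55370713 (minus strand): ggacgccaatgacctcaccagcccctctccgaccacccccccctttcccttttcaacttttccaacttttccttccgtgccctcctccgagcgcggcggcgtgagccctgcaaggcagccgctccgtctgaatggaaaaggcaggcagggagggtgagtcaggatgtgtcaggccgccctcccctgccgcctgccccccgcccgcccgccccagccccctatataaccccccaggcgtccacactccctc
For LCN2, IL6 and IL32 only the 30 bases around the match are shown, because the window overlaps the model of the gene itself. The printed bases overlap that model too, wholly for LCN2 and IL6 and in part for IL32. In each, the capital letters hold overlapping matches on both strands.
LCN2 chr9:128149267-128149296 (plus strand): gcagcactccGGGAATGTCCCtcactctcc
IL6 chr7:22727117-22727146 (plus strand): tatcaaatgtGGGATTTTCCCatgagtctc
IL32 chr16:3065294-3065323 (plus strand): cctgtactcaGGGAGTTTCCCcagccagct

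In unedited cells the programme stood at very different levels in the lines. Of the 31 members tested beside SAA1, SAA2 and LCN2, WM115 WT had higher levels than A375 WT of 13 and lower levels of 2, and 13.1% and 9.55% of all 16126 genes were called in these directions. Of the 13, CCL2 and IL1B were below 1 TPM in every A375 WT library and were tested only because of their level in WM115. PTGS2 and BIRC3 reached 1 TPM in fewer than 3 A375 WT libraries, so they too were tested only because of WM115. Of the 2 that were lower, IL11 reached 1 TPM in fewer than 3 WM115 WT libraries and was tested only because of A375. The mean of CXCL3 in WM115 WT was 0.92 TPM. SAA1, a serum amyloid A protein, was at 737, 539, 246 and 53.6 TPM in the 4 WM115 WT libraries and at 0.101, 0, 0.121 and 0.414 TPM in those of A375, a log2 difference of 7.88. LCN2, an iron-siderophore binding lipocalin, was at 404, 361, 237 and 39.1 TPM in WM115 and 0.672, 0.26, 3.2 and 0.235 TPM in A375, a difference of 6.73. The lowest WM115 library of either gene was above the highest A375 library. The difference of SAA2 was 6.08. Since the WM115 WT libraries took part in choosing SAA1, SAA2 and LCN2, their line differences are a description with no test. The 13 members called higher in WM115 were IL1B (5.35), CCL2 (3.56), CSF1 (3.14), SOD2 (2.92), C3 (2.75), LIF (1.85), NFKBIZ (1.63), PTGS2 (1.61), CXCL8 (1.51), TNFAIP3 (1.46), ICAM1 (1.44), BIRC3 (1.42) and CEBPB (1.38). CXCL3 (-1.5) and IL11 (-2.91) were called lower, IL11 being a cytokine of the IL6 family at 8.63, 11.5, 16.5 and 10.5 TPM in A375 WT. Leaving out WM115 WT library 1 ended the call of ICAM1 (adjusted p = 0.054), and that of CXCL8 was lost without WM115 WT library 1 or 2 or A375 WT library 1 or 4. The remaining calls were kept in all 8 fits that left out 1 library. For the NF-kB subunits the differences were small. NFKB1 was at 22.7, 23.2, 19.6 and 17.7 TPM in WM115 and 37.7, 30.9, 34.1 and 39.1 TPM in A375, and the differences of NFKB1 (-0.74), NFKB2 (-0.59) and RELB (0.38) were under 1 in size. In bulk RNA such as this, fewer cells with a high level and less RNA per cell cannot be told apart.

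**Figure D1:**
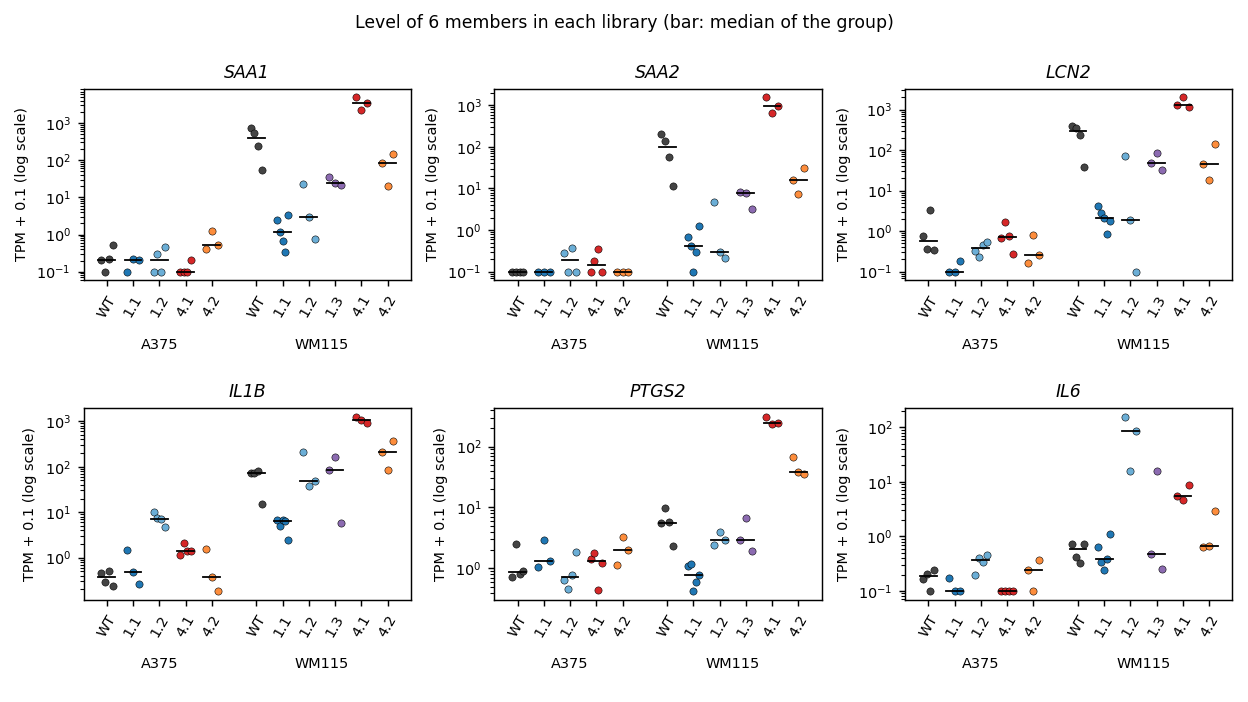
Levels of SAA1, SAA2, LCN2, IL1B, PTGS2 and IL6 in every library of both lines. The y axis is TPM + 0.1 on a log scale, each point is 1 library, groups are line and clone, and the bar is the group median. The 3 libraries of WM115 clone 4.1 lie above all WM115 WT libraries in each of the 6 panels, and SAA1, SAA2 and LCN2 sit near the bottom of the axis throughout A375.

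The WM115 WT libraries also differed among themselves. Of the 32 members with a mean TPM of at least 1 in WM115 WT, 24 were highest in WT library 1, 18 were lowest in library 3 and 13 in library 4. The median fold between the highest and the lowest WT library was 3.05 over these members and 1.42 over 15030 genes with the same mean level. The fold was at least 2 for 25 of the 32 members (18.7% of all genes) and at least 5 for 10 (2.43%). SAA2 had the widest range, from 11.5 to 201 TPM, or 17.5-fold, and TNFAIP2, a TNF-induced gene, the narrowest at 1.18-fold. IL1B, which encodes the precursor of a secreted cytokine that itself activates NF-kB, was at 73.3, 73.6, 79.6 and 14.7 TPM in libraries 1 to 4, so library 4 alone was low. SOD2, the mitochondrial superoxide dismutase, was at 773, 390.2, 120.0 and 229.8 TPM, and here library 3 was the lowest. WT libraries of A375 had a median fold of 2.27 over 27 members (1.72 over all genes), with 11 members highest in library 2 and 11 in library 3. LCN2 had the widest range there, from 0.235 to 3.2 TPM. Every comparison with WM115 WT below rests on these 4 libraries.

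**Figure D2:**
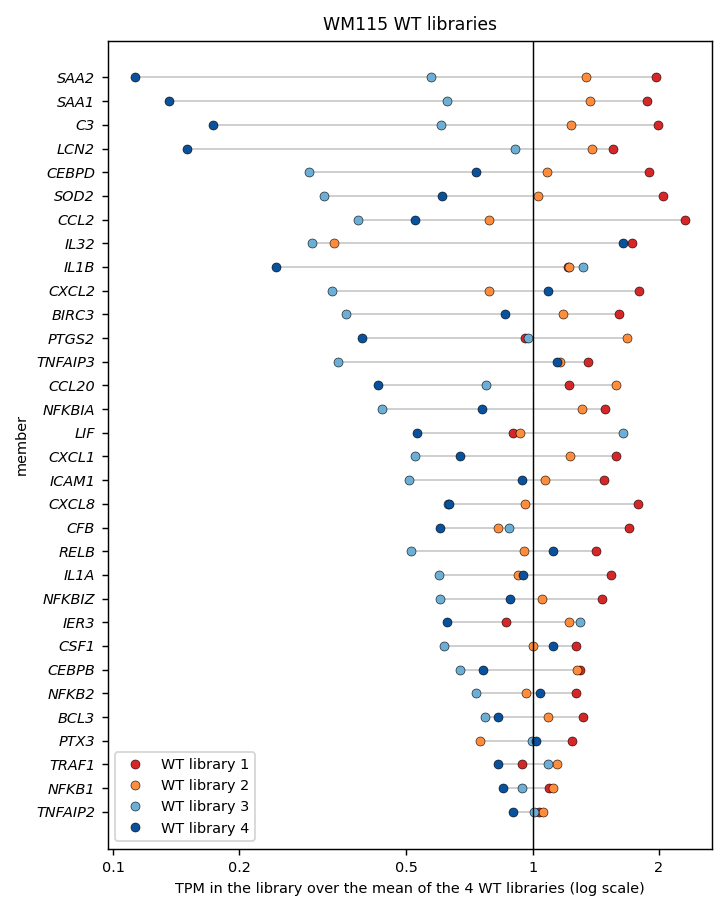
WM115 WT libraries. The x axis is the TPM of a member in 1 library over its mean in the 4 WT libraries, on a log scale, and each colour is 1 library. Library 1 is rightmost for 24 of the 32 members, and the points of SAA2 spread over 17.5-fold while those of TNFAIP2 spread over 1.18-fold.

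Across the WM115 clones the programme went in different directions. The summed level of the 40 members was 8907 to 13507 TPM in clone 4.1, 1201 to 3616 TPM in WT, 1366 to 2804 TPM in clone 4.2, 1179 to 2061 TPM in clone 1.2, 1377 to 1988 TPM in clone 1.3 and 703 to 880.5 TPM in clone 1.1. SAA1, LCN2 and IL1B made up 55.5% of the sum in clone 4.1. Beside SAA1, SAA2 and LCN2, 34 members had a mean of at least 1 TPM in some WM115 group. Of these, 26 had their highest group mean in clone 4.1, where 14.8% of all 16985 genes had theirs. Clone 1.1 held the lowest mean of 23, against 24.7% of all genes, and nothing is read from that count because clone 1.1 took part in choosing the set. Over all 11 groups of both lines, 21 of the 34 were highest in WM115 clone 4.1, against 7.57% of all genes. Clone 4.1 thus carried the same genotype label as clone 4.2 but a summed level that did not overlap with it.

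SAA1, SAA2 and LCN2 stood lower in both R1 clones of WM115, which is how they were chosen. SAA1 was at 2.4, 1.07, 0.554, 0.241 and 3.17 TPM in clone 1.1 and at 22.6, 2.8 and 0.681 TPM in clone 1.2, all below the lowest WT library. SAA2 was at 0.586, 0.311, 0, 0.20 and 1.18 TPM in clone 1.1 and at 4.53, 0.191 and 0.114 TPM in clone 1.2. LCN2 was at 4.12, 2.77, 1.99, 0.748 and 1.65 TPM in clone 1.1 and at 70.1, 1.74 and 0 TPM in clone 1.2, where library 1 lay inside the WT range. As differences from WT these were SAA1 -6.92, SAA2 -5.59 and LCN2 -5.98 in clone 1.1 and SAA1 -5.67, SAA2 -5.12 and LCN2 -5.06 in clone 1.2. SAA1 and SAA2 are near-identical paralogs whose reads the authors' counting could split between them, so their separate levels are uncertain.

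The other members stood differently in each R1 clone, given here as a description. In clone 1.1, 12 of 37 members passed the thresholds lower and 1 higher, with 3.66% and 1.22% of all genes doing so, and the median difference was -0.75 against -0.12 over all genes. In clone 1.2, 5 passed lower and 5 higher, with 3.11% and 4.49% of all genes, and the median was -0.18 against -0.02. Nothing is read from these counts, because the same contrasts chose the set. In clone 1.1 the members past the thresholds were, beside SAA1, SAA2 and LCN2, CCL2 -3.88, C3 -3.73, IL1B -3.08, PTGS2 -1.87, NFKBIZ -1.56, SOD2 -1.53, BIRC3 -1.37, TNFAIP3 -1.35 and NFKBIA -1.04, and the one that was higher was IL11 (1.06). In clone 1.2 CCL2 (-3.01) and CXCL1 (-1.81) were lower beside the 3 genes, while IL6 5.42, IL32 2.01, CCL5 1.55, TNFAIP2 1.38 and PTX3 1.26 were higher. Without library 3 of clone 1.2, the library with little SOX10, 7 members passed in place of 10.

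A direct comparison of the R1 clones takes no level from a WT library. Its SE and p use the spread within all WM115 groups, WT included. It uses the clone libraries on which SAA1, SAA2 and LCN2 were chosen, so these 3 have no test here, and the differences of the other 34 members tested come from clones around which the set was built. Clone 1.1 had lower levels than clone 1.2 of 14 of the 34, against 8.51% of all 16997 genes, and a higher level of 0, against 3.25%. IL6, the cytokine that drives much of the liver acute phase, was at 0.543, 0.234, 0.145, 0.283 and 1.0 TPM in clone 1.1 and 158, 16 and 87.2 TPM in clone 1.2, a difference of -5.46 (SE 0.70, adjusted p = 2.02e-05). C3, the central complement protein, differed by -5.02 (SE 0.64, adjusted p = 1.91e-05) and IL1B by -3.6 (SE 0.81, adjusted p = 0.00226). The groups did not overlap for IL6, C3 or IL1B. The other calls were IL32 -3.02, CCL5 -2.29, NFKBIA -1.64, BCL3 -1.52, TNFAIP2 -1.48, CEBPD -1.39, CEBPB -1.37, CFB -1.32, ICAM1 -1.3, PTGS2 -1.22 and NFKBIZ -1.17. SAA1, SAA2 and LCN2, low in both clones by choice, differed by -1.25, -0.47 and -0.92, given as a description. Markers of several cell types moved in the same comparison. The melanocytic markers DCT (3.88), TYRP1 (3.55), S100B (2.87), S100A1 (2.16) and SOX10 (2.13) were higher in clone 1.1. SOX10 was at 279, 272 and 9.56 TPM in libraries 1 to 3 of clone 1.2 and at 342 to 482 TPM in clone 1.1. Its difference thus rests largely on library 3 of clone 1.2. The melanocytic markers summed to 42.8 TPM in that library, where the median of the clone was 993 TPM. How these markers differ without library 3 was not tested. Of the 6 fibroblast markers, PDGFRB (-2.15) and COL1A1 (-1.33) were lower and COL3A1 (1.23) and DCN (1.01) higher. COL1A1 was at 2.09 to 2.43 TPM in clone 1.2 and reached 1 TPM in fewer than 3 other WM115 libraries. It was thus tested only because of its level in clone 1.2. DSP, an epithelial marker, was lower (-1.91), as was the endothelial marker PECAM1 (-2.27), while KDR was higher (1.21). The part of these markers in the result was not tested. Of the 14 calls, 11 were kept in all 8 fits that left out 1 library. Library 3 of clone 1.2 decided CFB (-1.32, -0.87 without it), and NFKBIZ and CEBPD were lost without it or without 1 or 2 other libraries (largest adjusted p 0.0867 and 0.196).

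**Figure D3:**
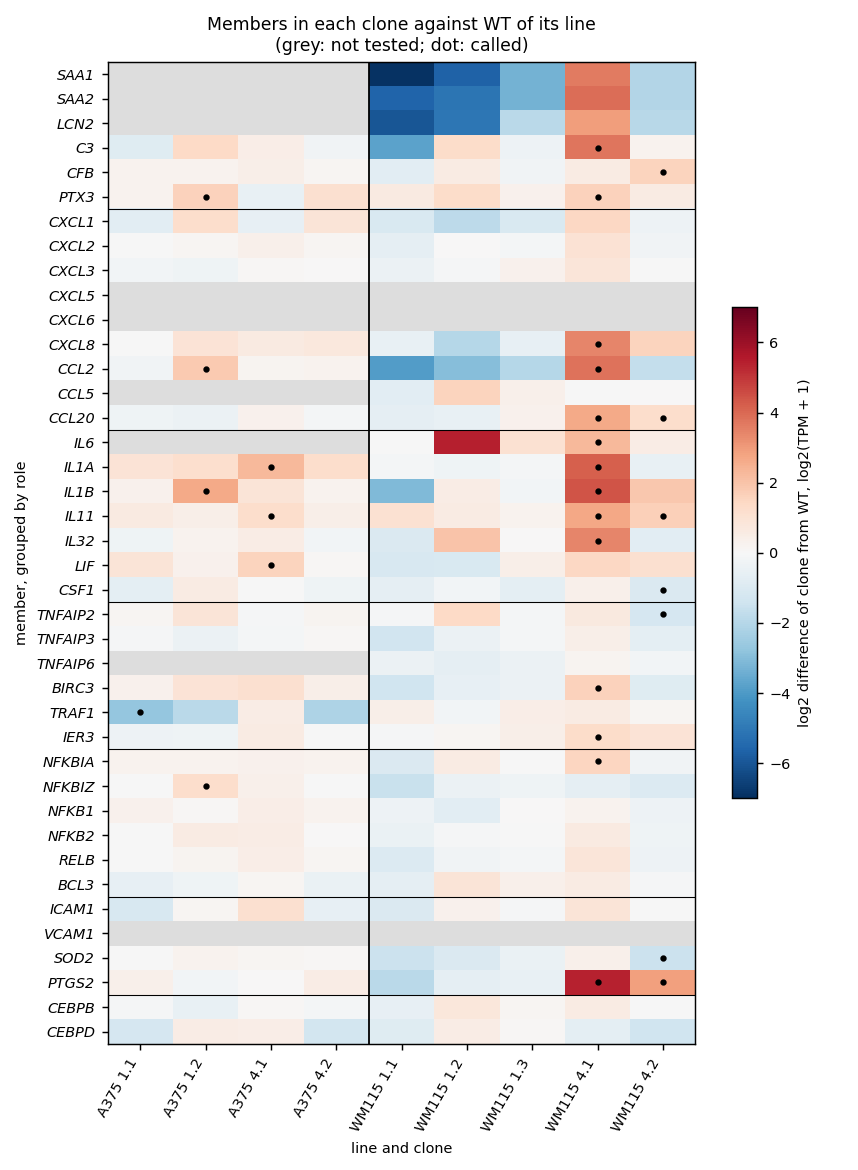
Difference of each clone from WT of its line for the 40 members, grouped by role. Colour is the log2 difference on the log2(TPM + 1) scale, grey is not tested, and a dot marks a call. No dots are drawn for WM115 clones 1.1 and 1.2, which chose the set, nor for SAA1, SAA2 and LCN2 in WM115. The column of WM115 clone 4.1 is mostly higher, with 14 of the other 34 members called, and the column of clone 1.1 is mostly lower.

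In WM115 clone 4.1 the inflammatory genes stood far above WT. Of the 34 members tested beside SAA1, SAA2 and LCN2, 14 were higher and 0 lower, against 3.2% and 4.37% of all 16997 genes. Their median difference was 0.95, against -0.10 over all genes. For 20 of the 34 every library of clone 4.1 was above every WT library, which held for 13.8% of all genes. In clone 4.2, with the same label, 4 of the 34 were higher and 3 lower, against 2.52% and 4.08% of all genes. Tested directly against each other, clone 4.1 had higher levels than clone 4.2 of 14 of 37 members and a lower level of 0, against 1.82% and 0.806% of all genes. All libraries of clone 4.1 were above those of clone 4.2 for 25 members (14.6% of all genes) and below them for 1, CFB (13.2%). The comparisons of clones 4.1 and 4.2 with WT share the WT libraries. Melanocytic markers were lower than in WT in both R4 clones, 6 of 9 in clone 4.1 and 5 of 9 in clone 4.2, with MLANA at -4.13 and -4.07 and DCT at -6.5 and -6.89. Their sum was 1007 to 1358 TPM in clone 4.1, 1439 to 1764 TPM in clone 4.2 and 1463 to 3391 TPM in WT. Of the markers of other cell types, the fibroblast marker DCN was higher in clone 4.1 (1.74, at 2.21 to 4.34 TPM against 0.058 to 0.634 TPM in WT) and not called in clone 4.2 (0.54). Another fibroblast marker, LUM, went the other way, called lower in clone 4.2 (-1.71) and not called in clone 4.1 (-1.24). The keratinocyte marker KRT14 (1.5 and 1.34) and the endothelial marker PECAM1 (1.21 and 1.57) were higher in both R4 clones, and ITGAM, a myeloid marker, was lower in both (-1.83 and -1.8). KRT14 was at 1.92 to 3.65 TPM in clone 4.1, 1.36 to 2.56 TPM in clone 4.2 and below 1 TPM in all other WM115 libraries. It was thus tested only because of the R4 clones. In clones 1.1 and 1.2 ITGAM differed from WT by -1.82 and -1.83 and PECAM1 by -0.63 and 1.64, so neither pattern is particular to the R4 clones. Between clones 4.1 and 4.2 limma called no marker of these lists, and DCN, DSP, KDR and S100A1 had an unadjusted p under 0.05. The part of the markers in the result was not tested. With a term for libraries with a mitochondrial share above or below 7.5%, all 14 calls in clone 4.1 were kept. With that term 5.43% of all genes were called in either direction, against 7.57% without it. All WT libraries and 1 library of clone 4.1 were above 7.5%. The share was 13.7% to 15.6% in WT and 5.24% to 10.8% in clone 4.1, so the term cannot separate the share from the clone.

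**Figure D4:**
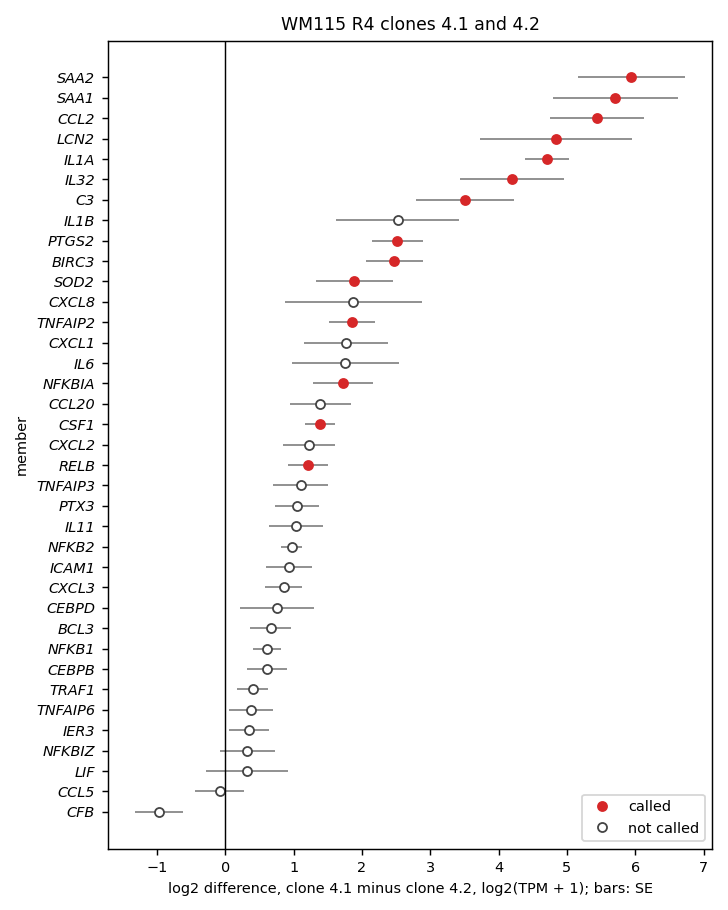
Clone 4.1 minus clone 4.2 of WM115. The x axis is the log2 difference on the log2(TPM + 1) scale with its SE, each row is 1 of the 37 members tested, and filled points are called. 14 members are called, all to the right of 0, and CFB is the only member whose libraries were all lower in clone 4.1.

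Among the acute-phase genes, SAA1, SAA2, LCN2, C3 and PTX3 were high in clone 4.1. In WM115, SAA1 was at 737, 539, 246 and 53.6 TPM in the WT libraries, at 4935, 2246 and 3477 TPM in clone 4.1 and at 83.7, 20.2 and 149 TPM in clone 4.2. SAA1 was at 2.4, 1.07, 0.554, 0.241 and 3.17 TPM in clone 1.1, at 22.6, 2.8 and 0.681 TPM in clone 1.2 and at 36, 23.7 and 21.1 TPM in clone 1.3. Clone 4.1 lay above every WT library, and clones 1.1, 1.2 and 1.3 below the lowest. In WM115, SAA2 was at 201, 137, 58.6 and 11.5 TPM in the WT libraries, at 1555, 669 and 975 TPM in clone 4.1 and at 15.9, 7.23 and 30.5 TPM in clone 4.2. SAA2 was at 0.586, 0.311, 0, 0.20 and 1.18 TPM in clone 1.1, at 4.53, 0.191 and 0.114 TPM in clone 1.2 and at 8.13, 7.6 and 3.08 TPM in clone 1.3. The order of the groups was that of SAA1. In WM115, LCN2 was at 404, 361, 237 and 39.1 TPM in the WT libraries, at 1308, 2022 and 1158 TPM in clone 4.1 and at 45.2, 18.3 and 146 TPM in clone 4.2. LCN2 was at 4.12, 2.77, 1.99, 0.748 and 1.65 TPM in clone 1.1, at 70.1, 1.74 and 0 TPM in clone 1.2 and at 49, 83.9 and 31.4 TPM in clone 1.3. Clone 4.1 was again above WT, by 5.75-fold on the means, against 9.02-fold for SAA1 and 10.4-fold for SAA2, while clone 4.2 overlapped with WT for all 3. These comparisons share the WT libraries that chose the 3 genes and are not tested. Clone 4.1 against 4.2 takes no level from a WT library, and there SAA1 differed by 5.71 (SE 0.92, adjusted p = 0.00063), SAA2 by 5.94 (SE 0.79, adjusted p = 9.38e-05) and LCN2 by 4.84 (SE 1.12, adjusted p = 0.0122). The SE and adjusted p use the spread within all WM115 groups, including WT and clones 1.1 and 1.2. They are therefore not independent of the libraries that chose the 3 genes. Leaving out library 2 of clone 4.2 ended the call of LCN2 (adjusted p = 0.0785).

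In WM115, C3 was at 57.4, 35.7, 17.5 and 4.99 TPM in the WT libraries, at 363, 267 and 278 TPM in clone 4.1 and at 46.9, 17.7 and 20.0 TPM in clone 4.2. C3 was at 0.727, 0.805, 0.555, 1.12 and 0.237 TPM in clone 1.1, at 27.2, 31.6 and 170.0 TPM in clone 1.2 and at 13.2, 39.8 and 8.33 TPM in clone 1.3. Clone 4.1 was above all WT libraries, and C3 differed from WT by 3.77 (SE 0.67, adjusted p = 0.000741) and from clone 4.2 by 3.5 (SE 0.72, adjusted p = 0.00517). In WM115, PTX3 was at 3.66, 2.2, 2.94 and 3.0 TPM in the WT libraries, at 11.7, 9.24 and 11.9 TPM in clone 4.1 and at 4.61, 4.29 and 5.5 TPM in clone 4.2. PTX3 was at 5.85, 4.7, 4.61, 4.66 and 5.06 TPM in clone 1.1, at 12.3, 7.96 and 5.93 TPM in clone 1.2 and at 4.14, 8.12 and 1.4 TPM in clone 1.3. PTX3 encodes a long pentraxin that binds microbes, and the libraries of clones 1.1, 1.2, 4.1 and 4.2 were all above the highest WT library. It was called in clone 4.1 (1.6 (SE 0.30, adjusted p = 0.0011)) and not in clone 4.2 (0.56 (SE 0.30, adjusted p = 0.195)). In WM115, CFB was at 4.0, 1.95, 2.08 and 1.42 TPM in the WT libraries, at 3.63, 3.87 and 4.03 TPM in clone 4.1 and at 9.67, 8.41 and 7.58 TPM in clone 4.2. CFB was at 0.756, 0.478, 1.54, 1.33 and 0.729 TPM in clone 1.1, at 2.2, 2.9 and 7.91 TPM in clone 1.2 and at 0.696, 2.82 and 2.1 TPM in clone 1.3. CFB, complement factor B, was called in clone 4.2 (1.56 (SE 0.32, adjusted p = 0.0031)) and not in clone 4.1 (0.58 (SE 0.32, adjusted p = 0.203)), and all libraries of clone 4.2 were above those of clone 4.1, with a difference between the clones of -0.97 (SE 0.35, adjusted p = 0.101).

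Of the chemokines, which attract neutrophils (CXCL1 to CXCL8) or monocytes and lymphocytes (the CCL group), 7 of 9 were tested and CCL2, CCL20 and CXCL8 were called in clone 4.1. In WM115, CCL2 was at 46, 15.7, 7.66 and 10.5 TPM in the WT libraries, at 323, 111 and 336 TPM in clone 4.1 and at 1.42, 2.17 and 18.4 TPM in clone 4.2. CCL2 was at 0.109, 0.059, 0, 0 and 0.584 TPM in clone 1.1, at 3.8, 0.294 and 0.454 TPM in clone 1.2 and at 3.6, 3.97 and 2.26 TPM in clone 1.3. Clone 4.1 was above every other group and clone 1.1 was near 0. CCL2 differed by 3.78 (SE 0.65, adjusted p = 0.00052) from WT and by 5.44 (SE 0.69, adjusted p = 5.88e-05) from clone 4.2. In WM115, CCL20 was at 3.08, 3.98, 1.95 and 1.08 TPM in the WT libraries, at 23.6, 10.6 and 29.9 TPM in clone 4.1 and at 6.14, 6.92 and 7.62 TPM in clone 4.2. CCL20 was at 1.18, 1.92, 1.98, 1.13 and 0.163 TPM in clone 1.1, at 2.63, 1.29 and 0.593 TPM in clone 1.2 and at 6.08, 3.09 and 1.35 TPM in clone 1.3. Both R4 clones were above all WT libraries, with a difference of 2.63 (SE 0.41, adjusted p = 0.000273) in clone 4.1 and 1.24 (SE 0.41, adjusted p = 0.0421) in clone 4.2, and the latter call was lost in 6 of 7 fits that left out 1 library. CXCL8, also known as IL8, was at 93.4, 50.2, 32.9 and 33.2 TPM in WT and 651, 313 and 708 TPM in clone 4.1 (3.43 (SE 0.93, adjusted p = 0.013)). Without library 1 of clone 4.1 it was not called (adjusted p = 0.0521). CXCL1, CXCL2 and CXCL3 differed by CXCL1 1.43, CXCL2 1.0 and CXCL3 0.84 and were not called. They are similar paralogs, whose reads may be shared. CCL5 was at 0.468 to 0.947 TPM in clone 4.1 and 0.29 to 1.38 TPM in WT. CXCL5 and CXCL6 did not exceed 0.122 TPM in any WM115 library.

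Of the 7 cytokines, 5 were higher in clone 4.1. In WM115, IL1A was at 2.0, 1.2, 0.78 and 1.23 TPM in the WT libraries, at 48.2, 28.1 and 48.5 TPM in clone 4.1 and at 0.508, 0.442 and 0.831 TPM in clone 4.2. IL1A was at 1.43, 1.11, 1.12, 1.28 and 0.433 TPM in clone 1.1, at 1.47, 0.546 and 0.638 TPM in clone 1.2 and at 1.84, 1.8 and 0.104 TPM in clone 1.3. Clone 4.1 was above every other library of the line, and clone 4.2 was within or below the WT range. IL1A encodes a membrane-associated alarmin that activates NF-kB, and it differed by 4.19 (SE 0.30, adjusted p = 2.08e-08) from WT and by 4.71 (SE 0.32, adjusted p = 1.5e-08) from clone 4.2. In WM115, IL1B was at 73.3, 73.6, 79.6 and 14.7 TPM in the WT libraries, at 1268, 1049.8 and 934 TPM in clone 4.1 and at 215, 83 and 359 TPM in clone 4.2. IL1B was at 6.62, 4.95, 6.56, 6.43 and 2.3 TPM in clone 1.1, at 209, 37.3 and 49 TPM in clone 1.2 and at 84.6, 162 and 5.79 TPM in clone 1.3. Both R4 clones were above all WT libraries. The difference was 4.39 (SE 0.84, adjusted p = 0.00131) in clone 4.1 and 1.86 (SE 0.84, adjusted p = 0.125) in clone 4.2, and 2.53 (SE 0.90, adjusted p = 0.104) between the clones. In WM115, IL11 was at 0.377, 0.781, 1.48 and 0.265 TPM in the WT libraries, at 14.7, 7.93 and 8.06 TPM in clone 4.1 and at 2.89, 4.89 and 5.44 TPM in clone 4.2. IL11 was at 1.91, 1.97, 2.96, 5.45 and 1.28 TPM in clone 1.1, at 2.85, 0.766 and 1.3 TPM in clone 1.2 and at 0.849, 2.19 and 0.311 TPM in clone 1.3. Both R4 clones were above the WT range, with 2.7 (SE 0.37, adjusted p = 7.26e-05) in clone 4.1 and 1.67 (SE 0.37, adjusted p = 0.0048) in clone 4.2.

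In WM115, IL32 was at 4.93, 0.958, 0.85 and 4.67 TPM in the WT libraries, at 31.2, 34.3 and 39.4 TPM in clone 4.1 and at 1.47, 0.684 and 0.795 TPM in clone 4.2. IL32 was at 0.818, 0.984, 1.06, 0.451 and 0.133 TPM in clone 1.1, at 8.55, 20.5 and 10.6 TPM in clone 1.2 and at 0.339, 22.8 and 0.222 TPM in clone 1.3. IL32, a cytokine found in humans and not in mice, differed by 3.43 (SE 0.71, adjusted p = 0.00226) from WT and by 4.19 (SE 0.76, adjusted p = 0.00196) from clone 4.2, while libraries 2 of clones 1.2 and 1.3 came closest to clone 4.1. In WM115, IL6 was at 0.626, 0.328, 0.228 and 0.64 TPM in the WT libraries, at 5.49, 4.46 and 8.77 TPM in clone 4.1 and at 0.545, 0.556 and 2.77 TPM in clone 4.2. IL6 was at 0.543, 0.234, 0.145, 0.283 and 1.0 TPM in clone 1.1, at 158, 16 and 87.2 TPM in clone 1.2 and at 0.37, 15.7 and 0.152 TPM in clone 1.3. The highest levels of IL6 were in clone 1.2, and clone 4.1 was above WT by 2.28 (SE 0.73, adjusted p = 0.0301). That call was lost in all 7 fits that left out 1 library, with adjusted p from 0.0518 to 0.0957. In WM115, LIF was at 64.4, 66.9, 117 and 38 TPM in the WT libraries, at 185, 177 and 179 TPM in clone 4.1 and at 116, 113 and 229 TPM in clone 4.2. LIF was at 27.1, 27.6, 33.3, 43.4 and 23.8 TPM in clone 1.1, at 119.6, 23.9 and 10.1 TPM in clone 1.2 and at 119, 136 and 44.8 TPM in clone 1.3. LIF, an IL6 family cytokine, was above all WT libraries in clone 4.1 and overlapped with WT in clone 4.2, and it was called in neither (1.43 (SE 0.56, adjusted p = 0.0714) and 1.11 (SE 0.56, adjusted p = 0.171)). In WM115, CSF1 was at 72.1, 57, 34.9 and 63.5 TPM in the WT libraries, at 68.5, 65.4 and 77.5 TPM in clone 4.1 and at 23.7, 24.1 and 32 TPM in clone 4.2. CSF1 was at 42.8, 38.4, 36.3, 30.1 and 32.5 TPM in clone 1.1, at 37, 49.9 and 61.1 TPM in clone 1.2 and at 33, 29.9 and 38.8 TPM in clone 1.3. CSF1, the growth factor of macrophages, overlapped between clone 4.1 and WT. It was called lower in clone 4.2 (-1.03 (SE 0.21, adjusted p = 0.00238)), which fell short of the fold in 4 of 7 fits that left out 1 library, and it was higher in clone 4.1 than in 4.2 by 1.38 (SE 0.22, adjusted p = 0.000603).

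Of the 6 NF-kB subunits and IkB proteins, NFKBIA alone was called in clone 4.1. In WM115, NFKBIA was at 50.0, 44, 14.7 and 25.4 TPM in the WT libraries, at 105, 53.6 and 118 TPM in clone 4.1 and at 17.7, 19.8 and 48.5 TPM in clone 4.2. NFKBIA was at 15.4, 13.6, 17.7, 12 and 13 TPM in clone 1.1, at 50.2, 27.5 and 71.5 TPM in clone 1.2 and at 27.2, 43.1 and 23.2 TPM in clone 1.3. Clone 4.1 was above all WT libraries (1.5 (SE 0.41, adjusted p = 0.0135)), and the call was lost without library 1 or library 3 of clone 4.1. NFKBIA encodes IkB alpha and is itself switched on by NF-kB. Against clone 4.2 it differed by 1.72 (SE 0.44, adjusted p = 0.0228), a call lost in 4 of 6 fits that left out 1 library. In WM115, NFKBIZ was at 20.8, 15, 8.54 and 12.6 TPM in the WT libraries, at 12, 3.92 and 11.4 TPM in clone 4.1 and at 4.36, 6.83 and 8.71 TPM in clone 4.2. NFKBIZ was at 4.91, 2.76, 1.74, 4.96 and 7.14 TPM in clone 1.1, at 10.2, 8.37 and 12.1 TPM in clone 1.2 and at 9.48, 8.67 and 14.5 TPM in clone 1.3. NFKBIZ, a nuclear IkB protein needed for LCN2 and IL6 induction, was not called in clone 4.1: it differed by -0.65 (SE 0.38, adjusted p = 0.216) from WT and its library 2 was below the WT range. RELB and NFKB2, the subunits of the alternative NF-kB pathway, passed the adjusted p but not the fold in clone 4.1 (0.87 (SE 0.28, adjusted p = 0.0289) and 0.65 (SE 0.15, adjusted p = 0.00376)). Between the R4 clones RELB was called (1.2 (SE 0.30, adjusted p = 0.0183), lost in 3 of 6 fits that left out 1 library). NFKB1 differed by 0.25 (SE 0.20, adjusted p = 0.384) and BCL3 by 0.56 (SE 0.28, adjusted p = 0.157) from WT.

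Of the 6 TNF-induced and NF-kB-induced regulators, BIRC3 and IER3 were called in clone 4.1. In WM115, BIRC3 was at 7.25, 5.32, 1.62 and 3.87 TPM in the WT libraries, at 18, 9.06 and 18.7 TPM in clone 4.1 and at 1.05, 1.11 and 4.09 TPM in clone 4.2. BIRC3 was at 0.829, 1.08, 1.33, 1.05 and 0.614 TPM in clone 1.1, at 3.43, 0.979 and 3.53 TPM in clone 1.2 and at 3.0, 3.82 and 1.88 TPM in clone 1.3. BIRC3, an inhibitor of apoptosis and a ubiquitin ligase, was above all WT libraries in clone 4.1 (1.62 (SE 0.39, adjusted p = 0.00652)) and differed from clone 4.2 by 2.47 (SE 0.42, adjusted p = 0.00102). In WM115, TNFAIP2 was at 14.8, 15.2, 14.4 and 12.8 TPM in the WT libraries, at 24.3, 22.7 and 22.6 TPM in clone 4.1 and at 3.84, 5.03 and 9.36 TPM in clone 4.2. TNFAIP2 was at 14.4, 11.9, 15.6, 13.4 and 11.5 TPM in clone 1.1, at 52, 20.2 and 55.5 TPM in clone 1.2 and at 9.55, 23.8 and 9.85 TPM in clone 1.3. All libraries of clone 4.1 were above WT and all of clone 4.2 below, with 0.66 (SE 0.32, adjusted p = 0.136) and -1.19 (SE 0.32, adjusted p = 0.0134). The difference between the R4 clones was 1.85 (SE 0.34, adjusted p = 0.00213), and the call of clone 4.2 against WT was lost without its library 1 or 2. In WM115, TRAF1 was at 20.5, 24.8, 23.7 and 18 TPM in the WT libraries, at 40.2, 26.9 and 31.3 TPM in clone 4.1 and at 28.1, 19.9 and 25.6 TPM in clone 4.2. TRAF1 was at 26.9, 26.9, 32.8, 35.4 and 24.2 TPM in clone 1.1, at 23.8, 23.4 and 11.1 TPM in clone 1.2 and at 33.6, 28.7 and 29.8 TPM in clone 1.3. TRAF1, an adaptor of TNF receptors, was above WT in clone 4.1 without overlap, and was not called (0.56 (SE 0.21, adjusted p = 0.0632)). IER3, an immediate early gene, was at 767, 667 and 502 TPM in clone 4.1 and 231, 326, 346 and 167 TPM in WT (1.3 (SE 0.27, adjusted p = 0.00209)). TNFAIP3, which encodes the NF-kB inhibitor A20, was at 11.1 to 21 TPM in clone 4.1 and 4.84 to 19.1 TPM in WT, and TNFAIP6 at 0.55 to 2.21 and 0.309 to 1.94 TPM, and neither was called.

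Of the adhesion molecules and enzymes, PTGS2 had the largest difference of all members in clone 4.1. In WM115, PTGS2 was at 5.49, 9.63, 5.59 and 2.25 TPM in the WT libraries, at 312, 236 and 245 TPM in clone 4.1 and at 67.3, 38.7 and 34.8 TPM in clone 4.2. PTGS2 was at 0.989, 1.09, 0.324, 0.505 and 0.675 TPM in clone 1.1, at 2.35, 3.8 and 2.81 TPM in clone 1.2 and at 2.83, 6.57 and 1.8 TPM in clone 1.3. PTGS2 encodes cyclooxygenase 2, the inducible enzyme of prostaglandin synthesis. All libraries of clone 4.1 were above those of clone 4.2, and those of clone 4.2 above all WT libraries. It differed by 5.41 (SE 0.35, adjusted p = 4.8e-09) in clone 4.1 and 2.89 (SE 0.35, adjusted p = 3.17e-05) in clone 4.2, and by 2.52 (SE 0.37, adjusted p = 0.000282) between them. PTGS2, IL11 and CFB were the members called higher in clone 4.2 in all 7 fits that left out 1 library. In WM115, SOD2 was at 773, 390.2, 120.0 and 229.8 TPM in the WT libraries, at 486, 218 and 567 TPM in clone 4.1 and at 96.7, 66.8 and 181 TPM in clone 4.2. SOD2 was at 127, 105, 87.4, 101 and 105 TPM in clone 1.1, at 168, 94.8 and 198 TPM in clone 1.2 and at 139, 158 and 485 TPM in clone 1.3. Clone 4.1 overlapped with WT (0.37 (SE 0.53, adjusted p = 0.647)). SOD2 was called lower in clone 4.2 (-1.51 (SE 0.53, adjusted p = 0.0486)) and higher in clone 4.1 than in 4.2 (1.88 (SE 0.56, adjusted p = 0.0499)), and these calls were lost in 5 of 7 and 4 of 6 fits that left out 1 library. ICAM1, an adhesion molecule for leukocytes, was at 323, 195 and 314 TPM in clone 4.1 and 229, 165, 78.2 and 146 TPM in WT, and passed the adjusted p but not the fold (0.91 (SE 0.32, adjusted p = 0.0436)). VCAM1 was at 1.02, 0.447 and 0.646 TPM in clone 4.1 and listed at 0 in all WT, 4.2 and 1.1 libraries. The C/EBP factors were not called: CEBPB differed by 0.58 (SE 0.27, adjusted p = 0.127) and CEBPD by -0.66 (SE 0.51, adjusted p = 0.36).

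In clone 1.3, whose labels conflict, 0 of the 34 other members were called by limma against WT, 3 had an unadjusted p under 0.05, and 0.618% of all genes were called and 13% had such a p. SAA1, SAA2 and LCN2 were described above. SAA1 and SAA2 differed from WT by -3.31 and -3.31, and LCN2 by -1.9. Its 3 libraries were uneven: library 2 held IL6 at 15.7 TPM and IL32 at 22.8 TPM, where libraries 1 and 3 held both at 0.152 to 0.37 TPM, and IL1B was at 5.79 TPM in library 3.

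In A375 at most 4 of 31 members were called in any clone against WT without a replicate block, and 5 in clone 4.1 with it. Summed levels ran from 512 to 1510.5 TPM over its 18 libraries, with IER3 leading in every group. SAA1 was at 0.101, 0, 0.121 and 0.414 TPM in WT, 0, 0.115 and 0.104 in clone 1.1, 0, 0.204, 0 and 0.37 in clone 1.2, 0, 0, 0 and 0.109 in clone 4.1 and 0.315, 1.14 and 0.415 in clone 4.2. SAA2 was at 0, 0, 0 and 0 TPM in WT, 0, 0 and 0 in clone 1.1, 0.182, 0, 0.278 and 0 in clone 1.2, 0, 0.084, 0.247 and 0 in clone 4.1 and 0, 0 and 0 in clone 4.2. Every SAA2 library of WT and of clones 1.1 and 4.2 was thus listed at 0. LCN2 was at 0.672, 0.26, 3.2 and 0.235 TPM in WT, 0, 0 and 0.080 in clone 1.1, 0.233, 0.132, 0.356 and 0.426 in clone 1.2, 0.595, 1.58, 0.679 and 0.179 in clone 4.1 and 0.060, 0.684 and 0.154 in clone 4.2. IL6 was at 0.065, 0.107, 0 and 0.139 TPM in WT, 0.070, 0 and 0 in clone 1.1, 0.094, 0.309, 0.24 and 0.365 in clone 1.2, 0, 0, 0 and 0 in clone 4.1 and 0.14, 0 and 0.266 in clone 4.2. Of these 4 genes only SAA1, in library 2 of clone 4.2, and LCN2, in library 3 of WT and library 2 of clone 4.1, passed 1 TPM, so none could be tested. CCL5, CXCL5, CXCL6 and VCAM1 reached at most 0.336 TPM and TNFAIP6 at 0.124 to 1.08 TPM.

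Against A375 WT, clone 1.1 had 0 members higher and 1 lower of 31 (0.186% and 0.545% of all 16692 genes). Clone 1.2 had 4 higher and 0 lower (2.57% and 1.44%), and clone 4.1 had 3 higher and 0 lower (0.246% and 0.407%). Clone 4.2 had 0 called by limma, with 4 members at an unadjusted p under 0.05, against 0.473% of all genes called and 7.77% at such a p. These 4 comparisons share the WT libraries. The melanocytic marker MITF was called lower in clone 1.1 (-1.31), and its part in the result was not tested. In clone 1.2 the fibroblast markers COL1A1 (1.1) and LUM (1.48) were called higher too and the melanocytic marker S100A1 lower (-2.07). The 6 fibroblast markers summed to 15.2 to 20.8 TPM there and 6.18 to 13.1 TPM in WT, and their part in the result was not tested. CCL2 was at 0.406, 0.535, 0.698 and 0.096 TPM in WT, 0.10, 0.401 and 0.090 in clone 1.1, 6.75, 3.83, 2.27 and 4.57 in clone 1.2, 0.681, 1.52, 0.197 and 0.429 in clone 4.1 and 0.389, 1.2 and 0.615 in clone 4.2. IL1B was at 0.356, 0.186, 0.411 and 0.134 TPM in WT, 1.34, 0.389 and 0.157 in clone 1.1, 9.84, 7.17, 7.0 and 4.71 in clone 1.2, 1.03, 1.98, 1.31 and 1.33 in clone 4.1 and 1.43, 0.282 and 0.085 in clone 4.2. Clone 1.2 was above every WT library and every library of clone 1.1 for both genes, and CCL2 differed from WT by 1.85 (SE 0.27, adjusted p = 0.000248) and IL1B by 2.65 (SE 0.27, adjusted p = 5.15e-06). Outside clone 1.2, CCL2 reached 1 TPM only in 1 library of clone 4.1 (1.52 TPM) and 1 of clone 4.2 (1.2 TPM). CCL2 was thus tested only because of its level in clone 1.2, and its call is no independent support. NFKBIZ was at 2.96, 4.35, 5.64 and 2.49 TPM in WT, 2.48, 6.03 and 3.01 in clone 1.1, 8.61, 7.34, 11.5 and 14.4 in clone 1.2, 5.0, 5.46, 6.44 and 3.57 in clone 4.1 and 2.78, 5.5 and 2.9 in clone 4.2. PTX3 was at 1.77, 1.42, 1.42 and 2.15 TPM in WT, 0.598, 3.01 and 3.75 in clone 1.1, 6.77, 7.84, 5.11 and 9.26 in clone 1.2, 1.35, 1.55, 0.274 and 0.701 in clone 4.1 and 2.47, 9.23 and 4.62 in clone 4.2. In clone 1.2 NFKBIZ differed from WT by 1.24 (SE 0.28, adjusted p = 0.00877) and PTX3 by 1.6 (SE 0.35, adjusted p = 0.00752), and again no library of clone 1.2 overlapped with WT. All 4 calls were kept in each of 8 fits that left out 1 library.

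IL1A was at 1.06, 3.4, 2.85 and 1.21 TPM in WT, 15.3, 3.12 and 1.75 in clone 1.1, 7.99, 4.0, 4.98 and 6.41 in clone 1.2, 11.1, 26.2, 19.6 and 5.43 in clone 4.1 and 9.67, 5.43 and 4.16 in clone 4.2. IL11 was at 8.63, 11.5, 16.5 and 10.5 TPM in WT, 22, 26.4 and 11 in clone 1.1, 25.5, 12.8, 16.2 and 11.1 in clone 1.2, 25.3, 28.5, 27.1 and 31.6 in clone 4.1 and 17.2, 18 and 12.3 in clone 4.2. LIF was at 14.2, 18.9, 15.6 and 23.4 TPM in WT, 27.8, 34.6 and 39.9 in clone 1.1, 18.6, 18.2, 25.7 and 29.2 in clone 1.2, 61.1, 62.1, 52.3 and 43.2 in clone 4.1 and 20.1, 16.3 and 21.3 in clone 4.2. All 4 libraries of clone 4.1 were above WT for each of these cytokines. LIF differed by 1.56 (SE 0.19, adjusted p = 0.000226), a call kept in all 8 fits that left out 1 library. IL1A (2.28 (SE 0.50, adjusted p = 0.0295)) and IL11 (1.22 (SE 0.27, adjusted p = 0.0295)) were lost in 6 and 7 of those 8 fits, with adjusted p of up to 0.113 and 0.116. WT and clone 4.1 were the groups of A375 whose same-numbered libraries deviated together. With the replicate number as a block, 5 members were called in clone 4.1, against 1.61% of 15250 genes, adding ICAM1 (1.12, adjusted p = 0.00126) and BIRC3 (1.1, adjusted p = 0.0191) to the 3 cytokines. BIRC3 was at 0.326, 1.97, 1.21 and 0.502 TPM in WT, 1.11, 1.61 and 1.36 in clone 1.1, 2.45, 2.53, 2.09 and 3.97 in clone 1.2, 3.31, 7.64, 2.78 and 0.976 in clone 4.1 and 1.55, 2.74 and 0.719 in clone 4.2. ICAM1 was at 124, 292, 96.5 and 50.4 TPM in clone 4.1 and 46.2, 112, 52.8 and 27.4 TPM in WT, with library 2 highest in each.

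**Figure D5:**
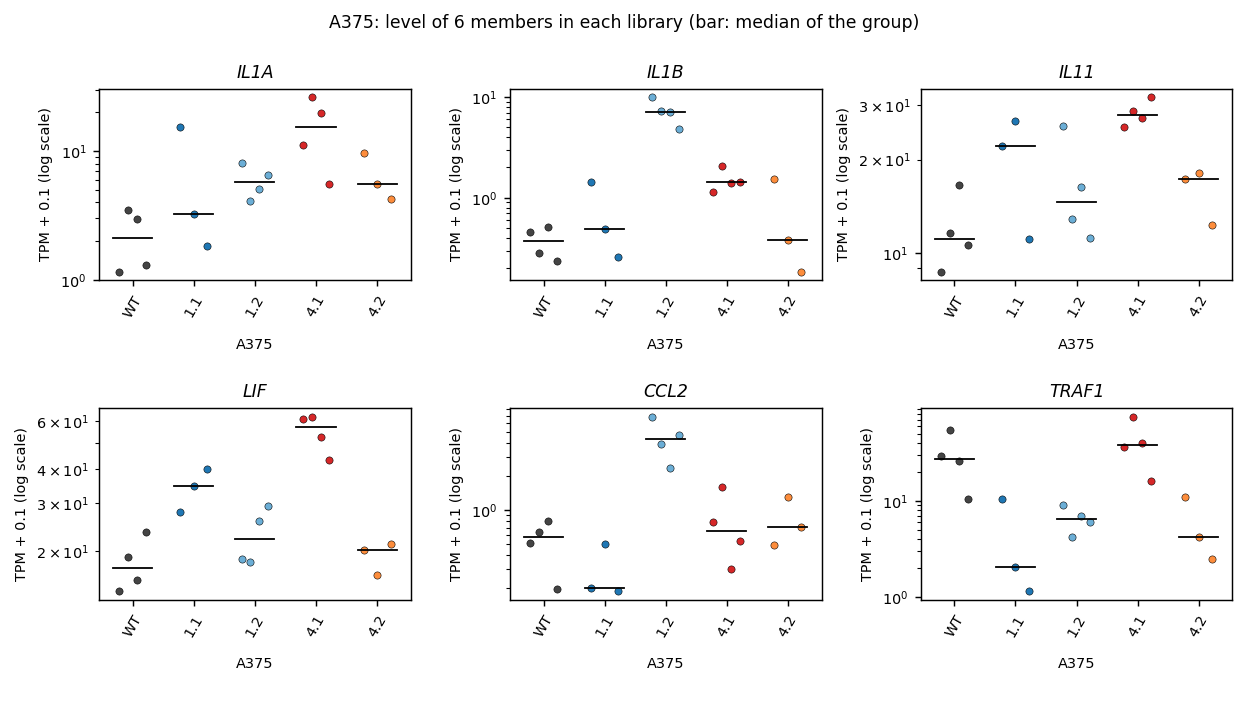
Levels of IL1A, IL1B, IL11, LIF, CCL2 and TRAF1 in the 18 libraries of A375. The y axis is TPM + 0.1 on a log scale, each point is 1 library, and the bar is the group median. LIF is highest in clone 4.1 (43.2 to 62.1 TPM), IL1B and CCL2 in clone 1.2, and TRAF1 is lower in clones 1.1, 1.2 and 4.2 than in clone 4.1.

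TRAF1 was at 29.1, 54.2, 26.1 and 10.4 TPM in WT, 10.3, 1.93 and 1.06 in clone 1.1, 9.03, 4.12, 6.88 and 5.93 in clone 1.2, 36.8, 75.7, 40.4 and 16.2 in clone 4.1 and 10.8, 4.13 and 2.37 in clone 4.2. TRAF1 was called lower in clone 1.1 (-2.71 (SE 0.62, adjusted p = 0.0431)), a call lost in 5 of 7 fits that left out 1 library, and it differed by -1.88 (SE 0.57, adjusted p = 0.0503) in clone 1.2 and by -2.18 (SE 0.62, adjusted p = 0.222) in clone 4.2. Between the R4 clones of A375, clone 4.1 had higher levels of LIF (1.45 (SE 0.20, adjusted p = 0.000686)) and TRAF1 (2.68 (SE 0.62, adjusted p = 0.0221)) and a lower level of PTX3 (-1.62 (SE 0.38, adjusted p = 0.0236)), 2 higher and 1 lower of 31 against 1.28% and 0.953% of all genes. LIF kept its call in all 7 fits that left out 1 library, TRAF1 lost it in 5 and PTX3 in 3. The keratinocyte marker KRT14 was also called lower in clone 4.1 than in clone 4.2 (-2.93), and its part was not tested. Between the R1 clones, clone 1.1 had 0 higher and 7 lower, against 1.47% and 4.68%, namely IL1B -2.36, C3 -2.25, CCL2 -2.1, CXCL1 -1.99, PTX3 -1.38, CSF1 -1.29 and NFKBIZ -1.27. Of these, CCL2 was tested only because of its level in clone 1.2. C3 was at 1.7, 4.21, 4.89 and 0.41 TPM in WT, 1.38, 0.773 and 0.487 in clone 1.1, 12.5, 4.46, 7.76 and 8.29 in clone 1.2, 3.68, 11.5, 2.34 and 1.2 in clone 4.1 and 3.67, 2.21 and 0.485 in clone 4.2. CSF1 was at 5.13, 6.59, 4.82 and 5.02 TPM in WT, 3.6, 3.01 and 2.19 in clone 1.1, 7.44, 9.66, 9.52 and 7.65 in clone 1.2, 5.15, 6.79, 4.3 and 4.63 in clone 4.1 and 5.43, 3.12 and 4.19 in clone 4.2. No library of clone 1.1 reached the lowest of clone 1.2 for either gene. COL1A1 (-1.37) and LUM (-1.78) were lower in clone 1.1 as well. CXCL1, C3 and PTX3 lost the call without 1 library of clone 1.1 (CXCL1 without library 2, adjusted p = 0.0502, and C3 without library 2 or 3) or, for PTX3, without library 1 of clone 1.1 or library 4 of clone 1.2.

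The remaining members given in full were called in no comparison within A375. CCL20 was at 1.76, 0.91, 2.08 and 2.34 TPM in WT, 1.07, 1.2 and 1.35 in clone 1.1, 1.5, 1.1, 0.775 and 0.785 in clone 1.2, 3.71, 1.74, 1.66 and 2.47 in clone 4.1 and 1.73, 0.627 and 2.34 in clone 4.2. IL32 was at 0.151, 2.56, 0.197 and 0.127 TPM in WT, 0.139, 0.391 and 0.235 in clone 1.1, 1.4, 0.306, 0.967 and 0.905 in clone 1.2, 1.03, 7.18, 0.463 and 0 in clone 4.1 and 0.278, 0.351 and 0.365 in clone 4.2. TNFAIP2 was at 13.3, 14.9, 15.5 and 14.5 TPM in WT, 14.8, 20.4 and 13.2 in clone 1.1, 30.5, 31.6, 23 and 26.2 in clone 1.2, 14.9, 16.5, 11.5 and 12.2 in clone 4.1 and 18.3, 16.4 and 16.6 in clone 4.2. TNFAIP2 passed the adjusted p in clone 1.2 (0.88 (SE 0.15, adjusted p = 0.00109)), with all libraries above WT, but not the fold. NFKBIA was at 17.3, 32, 25.3 and 14.8 TPM in WT, 26.3, 30.4 and 19.8 in clone 1.1, 26.1, 25.2, 22.8 and 28.8 in clone 1.2, 25.9, 50.6, 22.3 and 18.4 in clone 4.1 and 23.4, 34.8 and 20.0 in clone 4.2. SOD2 was at 35.4, 39.9, 34.5 and 48 TPM in WT, 33.7, 42.9 and 39 in clone 1.1, 34.6, 55.5, 49 and 48.2 in clone 1.2, 38.8, 79.8, 31 and 37.4 in clone 4.1 and 38.9, 45.8 and 42.3 in clone 4.2. For NFKBIA, SOD2 and IL32 library 2 of clone 4.1 was the highest of all libraries, and library 2 of WT was the highest WT library for NFKBIA and IL32. CFB was at 0.395, 0.757, 1.53 and 0.553 TPM in WT, 1.12, 1.73 and 0.62 in clone 1.1, 1.06, 1.1, 0.802 and 1.46 in clone 1.2, 0.691, 2.57, 1.16 and 1.44 in clone 4.1 and 0.918, 0.966 and 0.939 in clone 4.2. PTGS2 was at 0.606, 2.39, 0.708 and 0.818 TPM in WT, 0.938, 2.87 and 1.2 in clone 1.1, 0.546, 0.358, 0.686 and 1.74 in clone 1.2, 1.33, 1.68, 0.34 and 1.11 in clone 4.1 and 1.05, 3.17 and 1.9 in clone 4.2. PTGS2, which stood at 236 to 312 TPM in WM115 clone 4.1, did not exceed 3.17 TPM in A375. Of the others, NFKB1 was at 30.9 to 55.4 TPM, NFKB2 at 35.6 to 129 TPM, RELB at 10.9 to 40.6 TPM, BCL3 at 19.0 to 59.0 TPM, CEBPB at 34.7 to 75.5 TPM and CEBPD at 3.22 to 48.0 TPM over the 18 libraries, and none of them was called against WT. The chemokines CXCL1 (7.72 to 92.0 TPM), CXCL2, CXCL3 and CXCL8, and the regulators TNFAIP3 and IER3, were not called against WT either.

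With the clone as the unit, neither of the fits below gave a call. No such fit tested the R1 clones alone or the R4 clones alone against WT. R1 clones and R4 clones were compared over the 8 clones 1.1, 1.2, 4.1 and 4.2 of both lines, with the line as a term and no WT library. Of 31 members 0 were called by limma and 6 had an unadjusted p under 0.05, against 0 and 4.3% of all 15287 genes. WM115 clones 1.1 and 1.2, which took part in choosing the set, are among the 8 clones. The counts and differences of this fit are therefore a description, and nothing is read from them. The largest difference in size was that of PTGS2, -2.81 (R1 minus R4, SE 1.03, adjusted p = 0.996 over all genes), followed by CXCL8 at -1.99 (SE 0.76). Another fit asked whether the R4 clones differed from WT more in WM115 than in A375. There 0 of 31 members were called and 2 had an unadjusted p under 0.05, against 0 and 2.53% of all genes, and PTGS2 again had the largest value, 3.88 (SE 1.35). WM115 clones 4.1 and 4.2 did not overlap for 25 members in one direction and 1 in the other, so the R4 value of that line averages unlike clones.

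Genes of the same pathways outside the set were read from the same fits. In WM115 clone 4.1 each list had calls, and 3.2% of all genes were called higher and 4.37% lower. Of 29 further acute-phase and complement genes, 14 were tested and 4 were higher and 1 lower. Of 41 NF-kB signalling genes, 40 were tested, with 3 higher and 0 lower. Of 32 receptors and JAK-STAT genes, 23 were tested, with 3 higher and 1 lower, and of 34 further cytokines and chemokines 14 were tested, with 2 higher and 0 lower. The medians of these lists were 0.36, 0.08, 0.11 and 0.03, against -0.10 over all genes. TNFRSF11B, the decoy receptor osteoprotegerin, was higher in clone 4.1 (3.41, adjusted p = 0.00216) and in clone 4.2 (2.53, adjusted p = 0.017). TNIP3, which binds A20, was higher in clone 4.1 (1.38, adjusted p = 4.35e-07), as was ZC3H12A, an RNase that degrades IL6 mRNA (1.15, adjusted p = 0.00874). CARD10 was higher in clones 4.1 and 4.2 (1.59 and 2.02). IL6R, the ligand-binding chain of the IL6 receptor, was lower in both (-1.52 and -1.87). SAA4, chosen after its values were seen, was listed at 0 in 2 of 4 WT libraries and in all of clone 4.2, and stood at 4.93 to 9.90 TPM in clone 4.1.

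In WM115 clone 4.2, C1S, a complement protease, differed from WT by -2.87 (adjusted p = 0.00818), IL24 by -3.37 (adjusted p = 0.0127) and TNFSF13B, the B-cell factor BAFF, by -1.59 (adjusted p = 0.000326). SERPINA3, the acute-phase protease inhibitor antichymotrypsin, had another order than SAA1 in the R4 clones, with 39.6 to 105 TPM in clone 4.1, 32.5 to 222 TPM in WT and 185 to 975 TPM in clone 4.2. In clone 1.1 SERPINA3 was at 0.621 to 2.06 TPM and C1S at 0.23 to 2.26 TPM, against 6.39 to 38.8 TPM of C1S in WT. In A375, IL24 was lower in clones 1.1 and 4.1 (-3.11 and -3.1, adjusted p = 0.00621 and 0.00259) and higher in clone 1.2 (1.75, adjusted p = 0.0351). IL18, an IL1 family cytokine, was higher in clone 1.2 of A375 (2.32), and A2M, a protease inhibitor, lower (-2.99). CD40, a TNF receptor family member, was lower in clones 1.1 and 4.2 of A375 (-1.31 and -2.26).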

How the data were processed

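The authors deposited gene-level and transcript-level TPM, made per the submitters' processing notes with DRAGEN on GRCh38. The version and the annotation release are not given in the sources used here. Per the labels' protocols, poly-A RNA was selected and cDNA was primed with random hexamers. The deposited gene TPM sum to 999999.9 to 1000000.1 per library, 200 repeated lines were identical and used once, and 6 columns that match no sample were not used. Depth is unknown, so no counting interval is given.

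The linear models used limma 3.58.1 (R 4.3.3) on log2(TPM + 1), fitted separately for A375 and WM115, with 1 coefficient per group, an empirical Bayes trend and two-sided p adjusted over all genes tested (at least 1 TPM in 3 or more libraries, 16692 genes in A375 and 16997 in WM115). The fit was tested on simulated data with known changes. Python 3.11.15, pandas 2.3.3 and matplotlib 3.10.9 made the summaries and figures. The members and lists were chosen with earlier results of these data known.

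All 40 members are accounted for. Values in every library are given for SAA1, SAA2 and LCN2 and for members called in at least 2 comparisons that did not choose them, and other members by range and counts. From each further list, up to 3 genes with the largest difference among those called are named.

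Same-numbered libraries of A375 WT and clone 4.1 deviated together (r of 0.326 to 0.776 over 4 pairs), the only comparison in which every pair had an r over 0.1. For WM115 clones 4.1 and 4.2 r was 0.0175 to 0.238 over 3 pairs. Alternatives were a pseudocount of 0.1, no filter, median-of-ratios scaling, no minimum difference, the replicate block, the mitochondrial share as a term or as a restriction, and leaving out each library. The mitochondrial share entered only as high or low, cut at 2.5% in A375 and 7.5% in WM115. Promoters are from RefSeq, and where several starts are listed the first was used. Gene positions are from GENCODE 29.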

Additional observations from a re-analysis of the deposited data

Results flagged for a closer look

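In groups of 4 or 5 libraries, 9 of 162 member levels had 1 library far from the rest by Dixon's criterion, and chance alone flags about 1 in 20 groups. Of the 9, 5 lie in library 2 of A375 WT or clone 4.1. In A375 WT library 2, IL32 was at 2.56 TPM (others 0.127 to 0.197), NFKB2 at 81.4 TPM (others 35.6 to 39.4) and PTGS2 at 2.39 TPM (others 0.606 to 0.818). In library 2 of A375 clone 4.1, IL32 was at 7.18 TPM (others 0 to 1.03) and SOD2 at 79.8 TPM (others 31.0 to 38.8). LCN2 was at 3.2 TPM in A375 WT library 3 (others 0.235 to 0.672), CEBPB at 50.3 TPM in A375 WT library 1 (others 59.1 to 59.5) and CEBPD at 40.3 TPM in library 4 of A375 clone 1.2 (others 11.9 to 16.3). In WM115 the flag fell on IL1B alone, at 14.7 TPM in WT library 4 against 73.3 to 79.6 TPM in the other WT libraries.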

How the results depend on the processing

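The count of members called against WT or between clones moved by more than 1.5 times in these cases. In WM115 against WT, and between the WT lines, the counts here include SAA1, SAA2 and LCN2, whose values there are a description with no test. For A375 clone 1.1 (1 member) it was 0 without a filter, with median-of-ratios scaling, with the replicate block, with the mitochondrial share as a term and in libraries of low mitochondrial share, 2 with no minimum difference, and 0 to 2 when 1 library was left out. For A375 clone 4.1 (3) it was 1 without a filter, 1 in libraries of low mitochondrial share, 5 with the replicate block and 1 to 3 when 1 library was left out. For A375 clone 4.1 against 4.2 (3) it was 1 without a filter and 1 to 5 when 1 library was left out. For WM115 clone 1.1 (13) it was 6 in libraries of high mitochondrial share, for clone 1.2 (10) 4 with the replicate block, and for clone 4.2 (7) 2 in libraries of high mitochondrial share. Clone 1.3 (1, SAA2, which has no test there) gave 0 with a pseudocount of 0.1, without a filter, with the replicate block and in libraries of high mitochondrial share. WM115 clone 4.1 against 4.2 (14) gave 22 with the replicate block, against 4.11% of 14932 genes. The cause of these moves was not tested.

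Leaving out 1 library gave 10 to 16 for WM115 clone 1.1, 7 to 13 for clone 1.2, 0 to 2 for clone 1.3, 13 to 18 for clone 4.1 (17), 4 to 12 for clone 4.2, 10 to 17 for 4.1 against 4.2 and 11 to 15 for 1.1 against 1.2 (14). In clone 4.2 the count was 4 without WT library 1 or without its own library 1 or 2, and 12 without WT library 3. In A375 it gave 4 to 5 for clone 1.2 (4) and 5 to 8 for clone 1.1 against 1.2 (7), and 16 to 19 for WT against WT (18). Counts for clone 4.1 of WM115 ran from 15 to 22 under the settings other than leaving out a library. Between WM115 clones 1.1 and 1.2, where they are not tested, SAA2 and LCN2 changed sign without library 1 of clone 1.2, to 0.28 and 0.88, and ran from -0.87 and -2.19 up to these values when 1 library was left out. SAA1 was at -0.17 without that library and at -2.08 without library 3 of clone 1.2, against -1.25 with all libraries. Median-of-ratios scaling shifted the median of all genes in WM115 from -0.12 to -0.00 in clone 1.1 and from -0.10 to 0.01 in clone 4.1, where 21 members were then called. Apart from A375 clone 4.1, replicate numbers are only numbers here and the replicate block is no evidence of pairing. Levels near 0 have no counts behind them, which limits SAA1, SAA2 and IL6 in A375.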
